A study of Rattus norvegicus with 8 samples.

Results

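The Kruppel-like factors are DNA-binding proteins encoded by the Klf genes, and 9 of them (Klf2, Klf3, Klf4, Klf5, Klf6, Klf9, Klf10, Klf13 and Klf15) are described here among 14506 genes measured on these arrays. A gene entered through the probe sets (groups of array probes read as one value) that the array's annotation pairs with that gene alone, and where it had several, the brightest by mean over all arrays stood for it. All 9 were measured, Klf4 and Klf5 by 2 probe sets each. The cells were NRVMs, heart muscle cells isolated from the ventricles of neonatal rats and cultured in 6 cm dishes, and all of them were transfected by lipid reagent with 0.4 µM of a synthetic microRNA precursor and lysed 48 h later. The control group (4 arrays) received a scrambled precursor and the other group (4 arrays) the precursor of miR-222, which cells process into the mature form. No untransfected cells were analysed here, so each difference holds the effects of both RNAs. The labels do not say whether the arrays of a group came from separate cultures, so each p-value rests on the scatter among these 8 arrays, part or all of which may be technical.

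Kruppel-like factors share a set of zinc fingers near the C-terminus that reads GC-rich or CACCC-type DNA, and differ in the part that recruits other proteins. By textbook grouping Klf2, Klf4, Klf5 and Klf6 bind acetyltransferases and mostly activate genes, Klf3 binds the corepressor CtBP, and Klf9, Klf10 and Klf13 bind the corepressor Sin3A. In the heart Klf15 is known as a brake on hypertrophy and a regulator of fuel use, Klf5 as a factor of growth and fibrosis, and Klf2 and Klf4 as factors of the endothelium and of smooth muscle.

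The added microRNA is shown first, since its seed (bases 2 to 8, in capitals) decides which transcripts it can pair with, and its relative miR-221 carries the same seed. Both sequences are from RefSeq on GRCr8, at chrX:6022682-6022702 and chrX:6023246-6023268 on the plus strand. The 3′ untranslated regions of the Klf transcripts were not analysed here, and the arrays gave no reading of miR-222 itself.
rno-miR-222-3p: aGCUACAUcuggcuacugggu
rno-miR-221-3p: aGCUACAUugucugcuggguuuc

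The question of the comparison is which of these factors differed in cardiomyocytes given extra miR-222. Klf6, Klf5 and Klf4 fell, Klf9 rose, and Klf2, Klf3, Klf10, Klf13 and Klf15 did not pass the test. Klf6 fell most, to 0.657 of the control level, and Klf5 to 0.710, whereas the fall of Klf4 to 0.886 and the rise of Klf9 to 1.17 times the control level were small. The fall of Klf5 was read by the brighter of its 2 probe sets, and the other did not pass. A change is called where limma's p-value is under 0.05 after Benjamini-Hochberg adjustment over the whole array. The factors called were 4 of 9, beside 24.7% of all genes (1 higher beside 11.7%, 3 lower beside 13.0%). The groups did not overlap in 5 of the 9, namely the 4 called genes and Klf3, beside 33.3% of all genes. With 9 genes the members' shares are counts only and were not tested as a list. By the grouping above, which was applied after the values were seen, 3 of the 4 acetyltransferase-binding members fell and 1 of the 3 Sin3A-binding members rose. Over all measured Klf genes the same grouping gave 3 of 6 acetyltransferase-binding genes lower, 1 of 6 Sin3A-binding genes higher and 1 of 2 CtBP-binding genes lower.

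**Figure D1:**
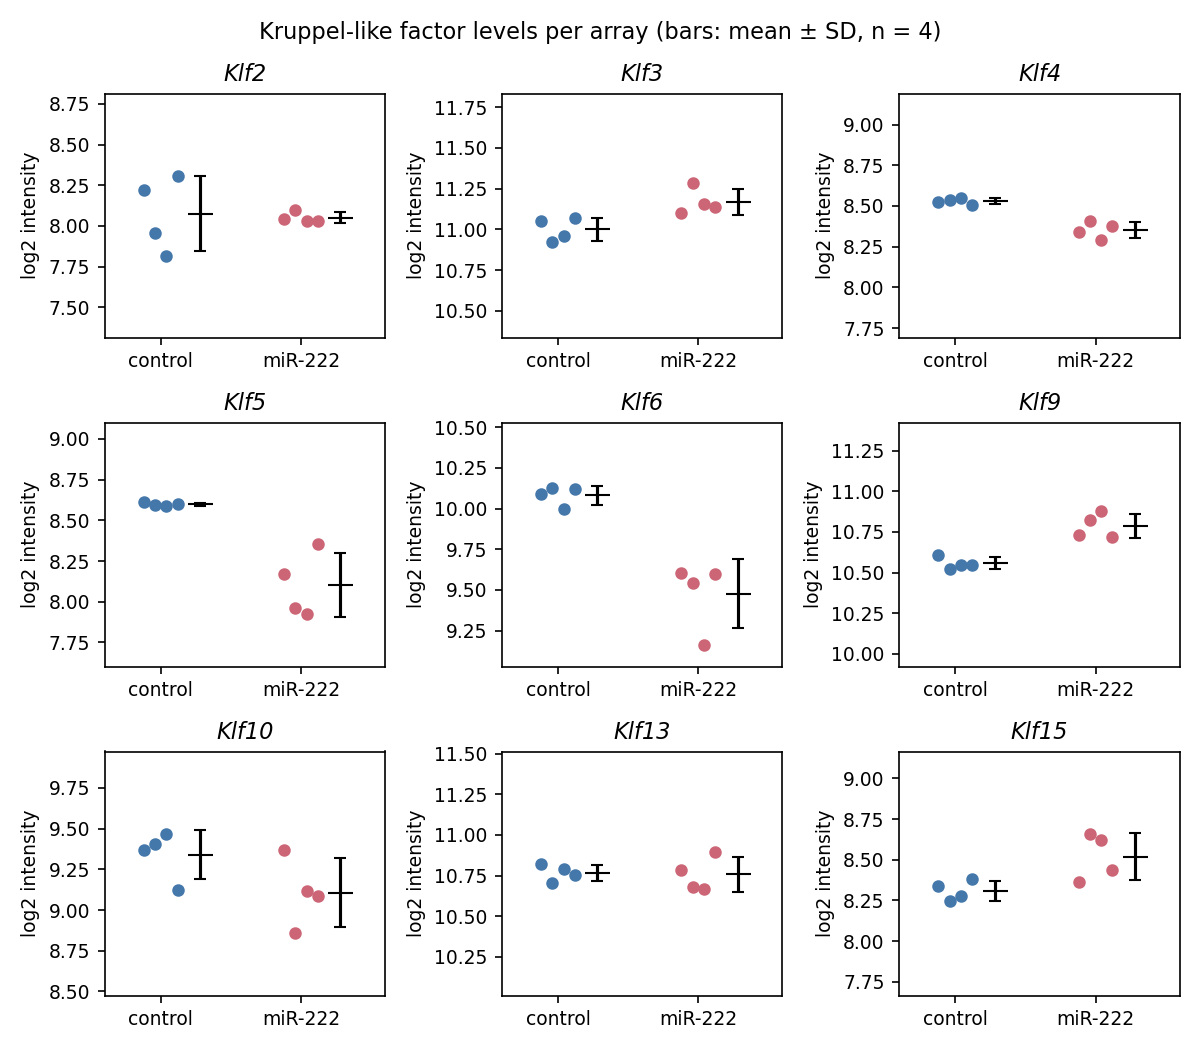
Level of each of the 9 factors on every array, in log2 intensity, with control arrays in blue and miR-222 arrays in red, and the mean ± SD (n = 4) beside each group; all panels span the same number of log2 units, and levels are not comparable between panels. The groups lie apart for Klf3, Klf4, Klf5, Klf6 and Klf9, and they overlap for Klf2, Klf10, Klf13 and Klf15.

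Klf6, a widely expressed factor first described through its part in tissue injury and in the control of TGF-beta genes, was read by probe set 10799291. The control arrays read 10.09, 10.12, 9.99 and 10.12 log2 units in replicates 1 to 4, and the miR-222 arrays read 9.60, 9.54, 9.16 and 9.60. Every miR-222 array lay below every control array, and miR-222 replicate 3 lay well below the other 3. The mean went from 10.08 ± 0.06 to 9.48 ± 0.21 (SD, n = 4 each), a log2 fold change of -0.61 (SE 0.10, limma adjusted p = 0.00437). An exact 2-sided permutation test over the 70 ways to divide 8 arrays into 4 and 4 gave p = 0.0286, the smallest it can give. Without miR-222 replicate 3 the change was -0.50 (limma adjusted p = 8.46e-04). Only 286 of the 14506 genes, Klf6 among them, had a fall of at least this size.

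Klf5, which in the heart is induced by angiotensin signalling and is linked to growth factor genes, was read by 2 probe sets that did not give the same answer. The brighter, 10781829, read 8.61, 8.59, 8.59 and 8.60 log2 units in the control arrays and 8.17, 7.96, 7.93 and 8.35 in the miR-222 arrays. All 4 miR-222 arrays were lower, and they were spread far wider than the control arrays, which lay almost at one value (SD 0.20 against 0.01). The log2 fold change was -0.49 (SE 0.09, limma adjusted p = 0.00719), and it was called without any single array, at -0.58 to -0.44. The dimmer probe set, 10835837, read 7.56, 7.61, 7.66 and 7.76 in the control arrays and 7.50, 7.87, 7.54 and 7.54 in the miR-222 arrays. These groups overlapped, and the change of -0.04 (SE 0.09, limma adjusted p = 0.842; 95% interval -0.24 to 0.17) did not pass. The changes of the 2 probe sets differed by 0.46 log2 units, with exact permutation p = 0.0286, the smallest possible, and 0.0571 after adjustment over the 2 pairs of probe sets compared. With the mean of both probe sets the fall of Klf5 was -0.27 (limma adjusted p = 0.0131). Which stretch of the transcript each probe set covers was not analysed here.

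Klf4, which holds smooth muscle cells in an undifferentiated state and is one of the reprogramming factors, fell by 0.17 on the log2 scale (SE 0.04, limma adjusted p = 0.0195) by its brighter probe set, 10876838. The control arrays read 8.52, 8.54, 8.55 and 8.50 and the miR-222 arrays 8.34, 8.41, 8.29 and 8.38, so that the groups lay apart by a narrow margin. Its other probe set, 10873814, read 8.28, 8.36, 8.56 and 8.15 in the control arrays and 8.23, 8.17, 8.04 and 8.29 in the miR-222 arrays. Those groups overlapped, and the change of -0.15 (SE 0.09, limma adjusted p = 0.318) was of like size with a larger error. The 2 changes differed by 0.02 log2 units (exact permutation p = 0.857). Klf4 no longer passed when one of control replicates 1, 2 and 3 or miR-222 replicate 1 was left out (limma adjusted p up to 0.0562), nor with the mean of both probe sets (limma adjusted p = 0.108).

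**Figure D2:**
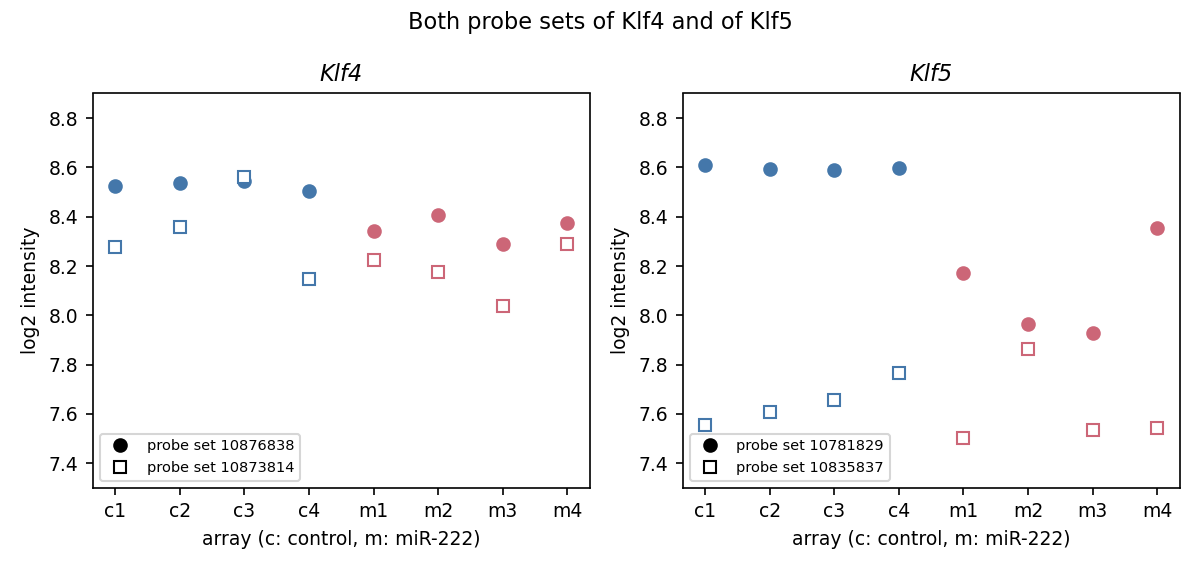
Log2 intensity of both probe sets of Klf4 and of Klf5 on each array (c1 to c4 control replicates in blue, m1 to m4 miR-222 replicates in red; filled points the brighter probe set, open points the dimmer). For Klf5 the filled points fall from about 8.60 to between 7.93 and 8.35, and the open points overlap between the groups.

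Klf2, a factor that fluid flow induces in endothelial cells and that holds back inflammation there, showed no shift of the mean. The control arrays read 8.22, 7.96, 7.82 and 8.31 and the miR-222 arrays 8.04, 8.10, 8.03 and 8.03, so that the miR-222 values all fell inside the range of the control values. The change was -0.02 (SE 0.11, limma adjusted p = 0.911), with a 95% interval of -0.27 to 0.22. That interval, not adjusted for the number of genes, leaves room for a change of the size of Klf4's in either direction. It leaves none for a fall as large as that of Klf6, or of Klf5 by its brighter probe set. The fall of Klf5 by the mean of both probe sets, -0.27, lay at its lower end.

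Klf9, a factor induced by glucocorticoid and thyroid hormone, was the member that rose. The control arrays of probe set 10714413 read 10.61, 10.52, 10.55 and 10.55 and the miR-222 arrays 10.73, 10.82, 10.88 and 10.72. All 4 miR-222 arrays lay above all 4 control arrays. The log2 fold change was 0.23 (SE 0.05, limma adjusted p = 0.0129; exact permutation p = 0.0286, the smallest possible), and it was called without any single array (limma adjusted p up to 0.0419).

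Klf10 and Klf13, the other Sin3A-binding members, did not pass. Klf10, known as an early gene of TGF-beta signalling, read 9.37, 9.40, 9.47 and 9.12 in the control arrays and 9.37, 8.86, 9.12 and 9.08 in the miR-222 arrays. The groups overlapped, since miR-222 replicate 1 was at the control level and control replicate 4 was at the level of the other miR-222 arrays, and the change of -0.23 (SE 0.12, limma adjusted p = 0.223) had a 95% interval of -0.50 to 0.03. Klf13, a factor that cooperates with Gata4 in the heart, read 10.82, 10.70, 10.79 and 10.76 in the control arrays and 10.79, 10.68, 10.67 and 10.90 in the miR-222 arrays. Its groups overlapped throughout, and the change was -0.01 (SE 0.06, limma adjusted p = 0.937; 95% interval -0.15 to 0.13).

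Klf3, the CtBP-binding repressor of the set, read 11.05, 10.92, 10.96 and 11.07 in the control arrays and 11.10, 11.28, 11.15 and 11.14 in the miR-222 arrays. The groups did not overlap, although control replicate 4 and miR-222 replicate 1 were only 0.03 log2 units apart. The change of 0.17 (SE 0.06, limma adjusted p = 0.0800) did not pass, and exact permutation gave the smallest possible p of 0.0286 without adjustment. It passed in 2 alternative fits, over the brighter probe sets only (limma adjusted p = 0.0361) and with a variance model that follows the level (limma adjusted p = 0.0213).

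Klf15, the member best known from heart muscle itself, read 8.34, 8.25, 8.28 and 8.38 in the control arrays and 8.36, 8.66, 8.62 and 8.44 in the miR-222 arrays. miR-222 replicates 2 and 3 were high, replicate 4 was a little above the controls, and replicate 1 was within them. The change was 0.21 (SE 0.08) and did not pass (limma adjusted p = 0.0967; 95% interval 0.04 to 0.38, not adjusted for the number of genes). It passed without miR-222 replicate 1, at 0.26 (limma adjusted p = 0.0462), and over the brighter probe sets only (limma adjusted p = 0.0492).

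**Figure D3:**
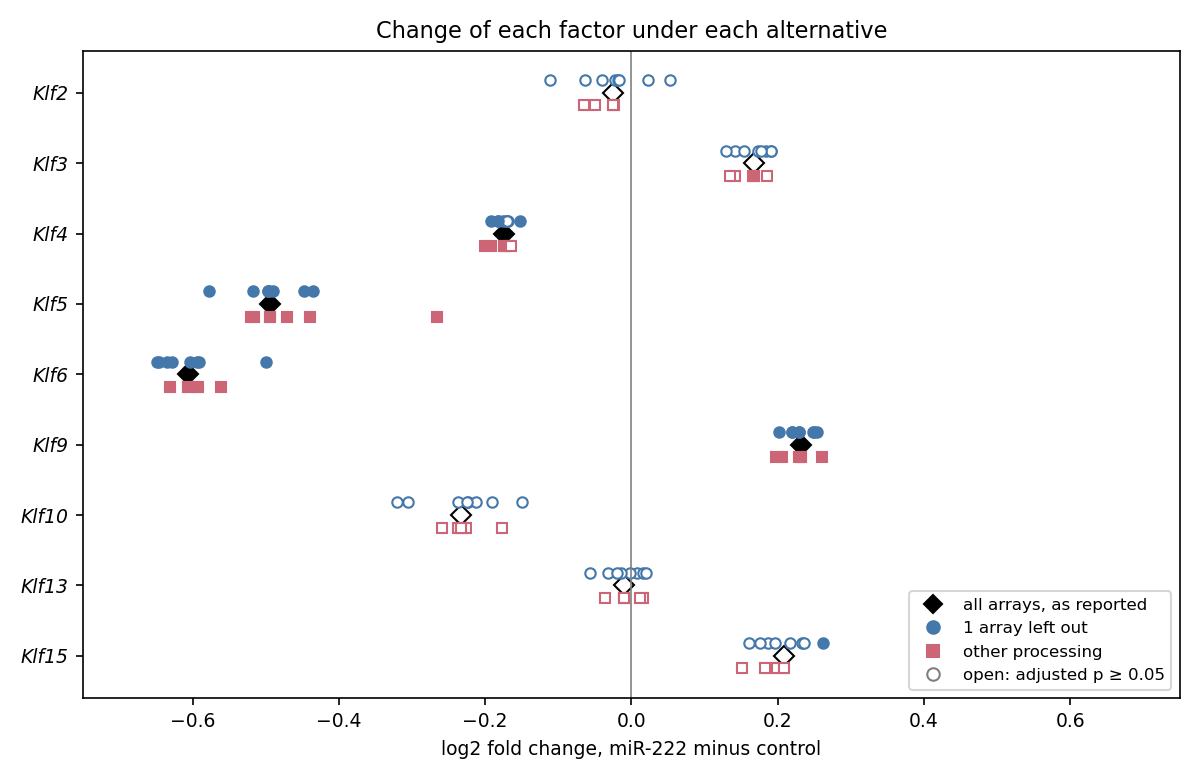
Log2 fold change (miR-222 minus control) of each factor with all arrays as reported (black), with 1 array left out (blue) and under other processing (red); filled points have a limma adjusted p under 0.05. Klf5, Klf6 and Klf9 are filled throughout, and the red point of Klf5 at -0.27 is the mean of its 2 probe sets.

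Of the other Klf genes, 6 of 8 listed were measured, and 1 of them was called. Klf12, a CtBP-binding repressor like Klf3, fell by 0.57 (SE 0.07, limma adjusted p = 0.00128), from 7.64, 7.85, 7.87 and 7.58 to 7.19, 7.11, 7.15 and 7.20 log2 units. All 4 miR-222 arrays lay clearly below the controls, close to one value. They also lay below every array median (7.66 to 7.77 log2 units), and whether such dim readings were above background is unknown. Klf11, a relative of Klf10 that TGF-beta also induces, measured -0.30 (SE 0.09, limma adjusted p = 0.0519), Klf7 measured 0.22 (adjusted p = 0.0794, passed in 2 alternative fits), the erythroid factor gene Klf1 0.24 (adjusted p = 0.161), Klf14 0.11 and Klf16 0.07. Without control replicate 4 the change of Klf1 passed (limma adjusted p = 0.0449), and that of Klf11 passed in 4 of the 6 alternative fits to all arrays (limma adjusted p from 0.0211). Over the whole family 1 of 15 measured Klf genes rose, 4 fell and 10 did not pass, where 11.7% of all genes rose and 13.0% fell. The Sp genes, which share the zinc fingers of the family, were called in 1 of 5 measured: Sp4 fell by 0.21 (SE 0.04, limma adjusted p = 0.0115), whereas Sp1, Sp2, Sp6 and Sp7 lay between -0.04 and -0.02.

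**Figure D4:**
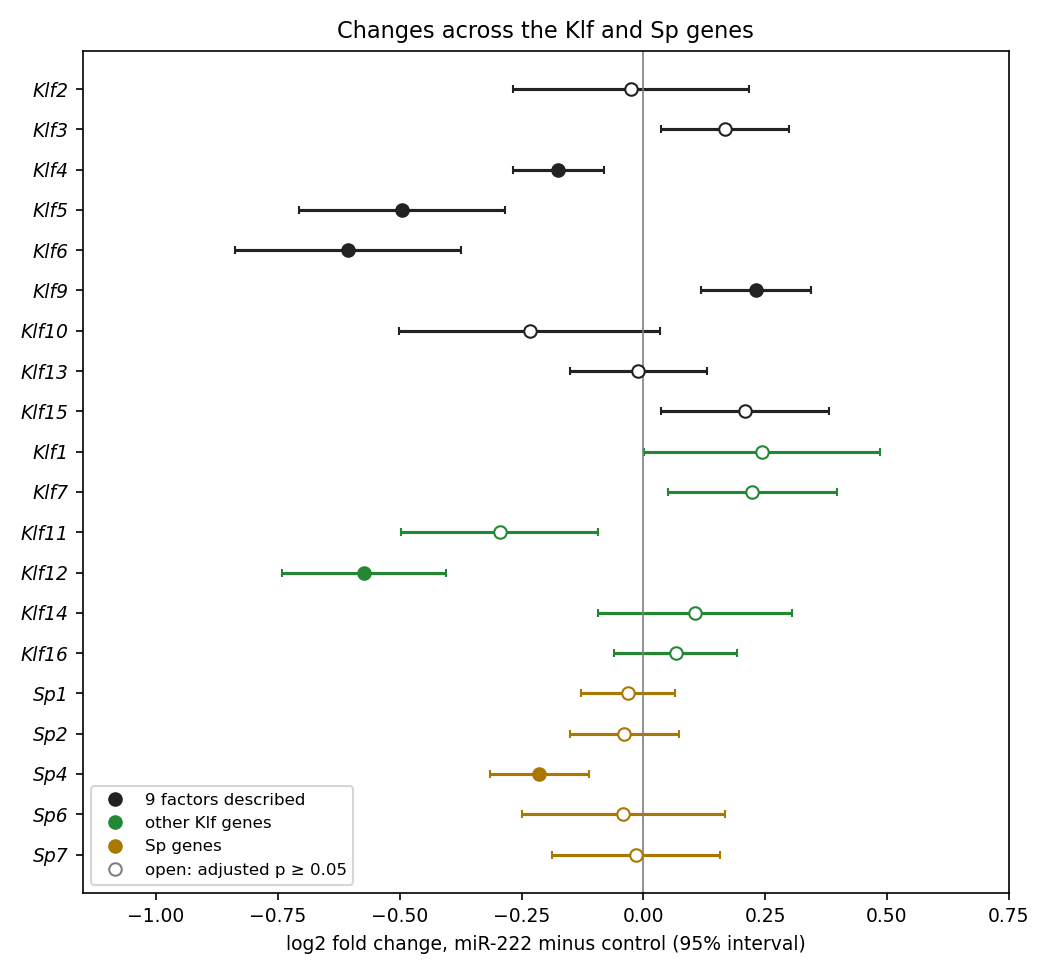
Log2 fold change (miR-222 minus control, with its 95% interval) of the 9 factors in black, the other measured Klf genes in green and the Sp genes in brown; filled points have a limma adjusted p under 0.05. The called genes are Klf4, Klf5, Klf6, Klf12 and Sp4 below 0 and Klf9 above it.

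Upstream DNA is shown for Klf5, Klf6 and Klf9, the members called without any single array, so that a gene that rose can be set beside those that fell. Each is the 250 bases before the start site in RefSeq on GRCr8, at chr15:82471831-82472080 (+ strand), chr17:69458479-69458728 (- strand) and chr1:230126396-230126645 (+ strand). Capitals mark the CCAAT box (CCAAT, or ATTGG where it lies on the other strand), a common element of promoters. In Klf9 a match on each strand overlaps as CCAATTGG.
Klf5: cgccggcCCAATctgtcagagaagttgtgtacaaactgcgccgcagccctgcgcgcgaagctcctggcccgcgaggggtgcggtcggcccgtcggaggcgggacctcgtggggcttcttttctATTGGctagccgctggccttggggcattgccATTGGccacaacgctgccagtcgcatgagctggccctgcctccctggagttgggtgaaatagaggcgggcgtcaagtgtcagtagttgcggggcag
Klf6: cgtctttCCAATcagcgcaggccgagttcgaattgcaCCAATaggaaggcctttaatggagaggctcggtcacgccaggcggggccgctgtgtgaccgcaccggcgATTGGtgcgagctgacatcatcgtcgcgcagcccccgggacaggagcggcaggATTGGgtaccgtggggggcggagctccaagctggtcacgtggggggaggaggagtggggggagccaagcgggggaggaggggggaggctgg
Klf9: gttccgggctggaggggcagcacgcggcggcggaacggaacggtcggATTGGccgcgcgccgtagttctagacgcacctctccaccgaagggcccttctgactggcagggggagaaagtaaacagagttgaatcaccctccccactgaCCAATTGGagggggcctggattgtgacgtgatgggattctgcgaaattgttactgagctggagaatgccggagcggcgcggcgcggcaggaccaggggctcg

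The window of Klf5 held 3 CCAAT matches, that of Klf6 4 and that of Klf9 3, counting both strands. Of 33469 promoter windows of this length 34.0% held at least 1 and 2.52% at least 3. The motif was picked out, after the sequences were seen, from several that were counted. Both directions of change are among the 3 genes, and a match is no sign that a factor binds. Of the 9 members 6 had a window: Klf3 and Klf15 held 1 match each and Klf4 held 0, and Klf2, Klf10 and Klf13 had no entry. The window of Klf4 was only 43.2% G and C. Whether it precedes the start site used in these cells was not checked, so its counts may not describe a promoter. CACCC, the letters most Kruppel-like factors prefer, occurred 4 times in the window of Klf3, 2 times in that of Klf5, 1 time each in Klf9 and Klf15 and 0 times in Klf4 and Klf6, on either strand, and 49.2% of all windows held it. GGGCGG, a GC-rich box, occurred 1 time in Klf6 and 0 times in Klf3, Klf4, Klf5, Klf9 and Klf15, beside 30.5% of all windows. CACGTG occurred 1 time each in Klf6 and Klf15, and TGACGT 1 time each in Klf9 and Klf15 (5.59% and 6.95% of all windows). All 3 windows shown were rich in G and C, at 63.6% to 67.2% against a median of 51.2% over all windows.

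Genes of the MEF2 and ERK5 route and of the glucocorticoid response were called about as often as genes in general (24.7%). Not all of them are inputs that raise the factors. The first list also holds restraints such as Hdac7, and the second holds mostly genes that respond to glucocorticoid. Of 8 measured genes of the MEF2 and ERK5 route, which switches on Klf2 and Klf4, 2 fell and 6 did not pass (25.0% called, median -0.03, beside 0.01 over all genes). Map3k3, a kinase at the head of that route, fell by 0.31 (SE 0.06, limma adjusted p = 0.00960), and the deacetylase gene Hdac7, which holds MEF2 back, fell by 0.15 (limma adjusted p = 0.0445), though leaving out any one array other than miR-222 replicate 4 ended that call (limma adjusted p up to 0.116). Mapk7, which encodes ERK5, measured 0.03, and Mef2a and Mef2d measured -0.05 and 0.04. Beside the rise of Klf9, 0 of 10 measured genes of the glucocorticoid response rose by the limma fit and 2 fell (20.0% called), Fkbp5 by 0.45 (SE 0.08, adjusted p = 0.00600) and Tsc22d3 by 0.33 (SE 0.06, adjusted p = 0.00623). None of these 10 had a rise with an unadjusted limma p under 0.05. Pdk4 measured 0.32 (limma adjusted p = 0.167) and passed without miR-222 replicate 2 (adjusted p = 0.0142) and with arrays weighted by their scatter.

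Genes that other studies place under these factors moved both ways, and the counts of each list stand beside 11.7% of all genes higher and 13.0% lower. The lists were chosen with earlier results of these data known, so their counts were not tested against those shares. Of 11 genes linked to Klf2 and Klf4, 4 fell and 1 rose (median -0.27). Kdr, the VEGF receptor gene that Klf2 is known to repress, fell by 1.51 (SE 0.09, limma adjusted p = 5.27e-05), and the endothelin gene Edn1, also held down by Klf2, fell by 1.01 (SE 0.08, adjusted p = 2.03e-04). Ccl2 fell by 0.43 and Vcam1 by 0.33, while Cdkn1a, which Klf4 activates and which encodes the cell cycle inhibitor p21, rose by 0.47 (SE 0.04, adjusted p = 3.17e-04). The count of 4 was 2 without control replicate 1 or 2, where Ccl2 and Vcam1 were lost. Ccl2 was lost also without control replicate 4, and Vcam1 without control replicate 3 or miR-222 replicate 4 (limma adjusted p up to 0.0636). Nos3 and Thbd, which Klf2 activates in endothelium, measured -0.09 and -0.27 and did not pass (limma adjusted p = 0.522 and 0.135).

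Of 7 genes linked to Klf5, 2 fell and 1 rose (median 0.15). The cyclin D1 gene Ccnd1 fell by 1.08 (SE 0.05, limma adjusted p = 1.83e-05) and the smooth muscle gene Tagln by 0.91 (SE 0.07, adjusted p = 1.24e-04), whereas Ppara, a nuclear receptor of fatty acid use that Klf5 is reported to drive in heart muscle, rose by 0.50 (SE 0.09, adjusted p = 0.00530). Pdgfa, a growth factor gene that Klf5 activates, measured -0.14 (adjusted p = 0.0581) and passed without miR-222 replicate 2 (adjusted p = 0.0449). The 1 higher gene became 2 without miR-222 replicate 3, where Birc5 also passed (adjusted p = 0.0261).

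Of 16 genes linked to Klf15, 3 rose, 4 fell and 9 did not pass (median -0.04). Kcnip2, the potassium channel subunit gene whose daily rhythm in heart muscle depends on Klf15, rose by 1.67 (SE 0.09, limma adjusted p = 4.25e-05) with a like rise of 1.56 by its second probe set. Bckdhb and Bckdha, subunits of the enzyme that breaks down branched-chain amino acids, rose as well, Bckdhb by 0.42 (SE 0.05, limma adjusted p = 0.00118) and Bckdha by 0.22 (SE 0.04, adjusted p = 0.00527). The 4 that fell are genes that Klf15 is reported to hold back: the matricellular gene Ccn2 by 1.17 (SE 0.21, adjusted p = 0.00602), the coactivator gene Myocd by 0.43 (SE 0.07, adjusted p = 0.00310), and the natriuretic peptide genes Nppa by 0.20 and Nppb by 0.26. Nppb no longer passed when one of control replicates 1, 2 and 4 or miR-222 replicates 1 and 4 was left out (limma adjusted p up to 0.0663). Of the 9 that did not pass, Tat, Prodh, Bckdk and Gpt measured 0.27, 0.19, 0.16 and 0.07. Slc2a4, Cd36, Dbt, Slc25a20 and Bcat2 measured -0.17, -0.10, -0.09, -0.05 and -0.04. Klf15 itself did not pass the test, and whether it bears on any of these changes was not tested.

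Beside Klf10 and Klf6, 5 of 13 measured TGF-beta genes fell and 1 rose (median -0.04), against 13.0% of all genes lower and 11.7% higher. Among the ligands Tgfb3 fell by 0.54 (SE 0.06, limma adjusted p = 7.53e-04), Tgfb2 by 0.49 (SE 0.08, adjusted p = 0.00423) and Tgfb1 by 0.22, and the coreceptor gene Eng, which Klf6 activates, fell by 0.27 (SE 0.05, adjusted p = 0.00647). The inhibitory Smad7, which Klf10 is known to repress, fell by 0.29 (SE 0.06, adjusted p = 0.0119), and Pttg1, another gene held back by Klf10, rose by 0.69 (SE 0.12, adjusted p = 0.00527). Tgfb1 no longer passed when one of control replicates 2, 3 and 4 or miR-222 replicates 1 and 3 was left out (limma adjusted p up to 0.0709).

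Partners of the factors were measured last. Of 11 measured cofactor genes 2 rose and 1 fell (27.3% called, near the 24.7% of all genes, median 0.03). Kat2b, an acetyltransferase, rose by 0.24 (SE 0.05, limma adjusted p = 0.00914), Ctbp1 fell by 0.19 (SE 0.04, adjusted p = 0.0108) and Ctbp2 rose by 0.16 (SE 0.04, adjusted p = 0.0307). Leaving out any one array other than miR-222 replicate 4 ended the call of Ctbp2 (limma adjusted p up to 0.0797). Hdac1, a deacetylase of the corepressor complexes, measured 0.17 (SE 0.05, limma adjusted p = 0.0525), and its second probe set rose by 0.18 (adjusted p = 0.0253). Hdac1 passed as higher in 6 of 7 alternative fits to all arrays, though not with each array centred on its median (adjusted p = 0.201), and without miR-222 replicate 2 (adjusted p = 0.0459). In that last refit the corepressor gene Ncor1 also passed as lower (limma adjusted p = 0.0422). Of 5 measured ubiquitin ligase genes that act on Kruppel-like factors 2 rose (40% called, against 24.7% of all genes). Wwp1, whose product degrades Klf2 and Klf5, rose by 0.38 (SE 0.05, limma adjusted p = 0.00171) and Fbxo32, which acts on Klf4, by 0.46 (SE 0.06, adjusted p = 0.00147).

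**Figure D5:**
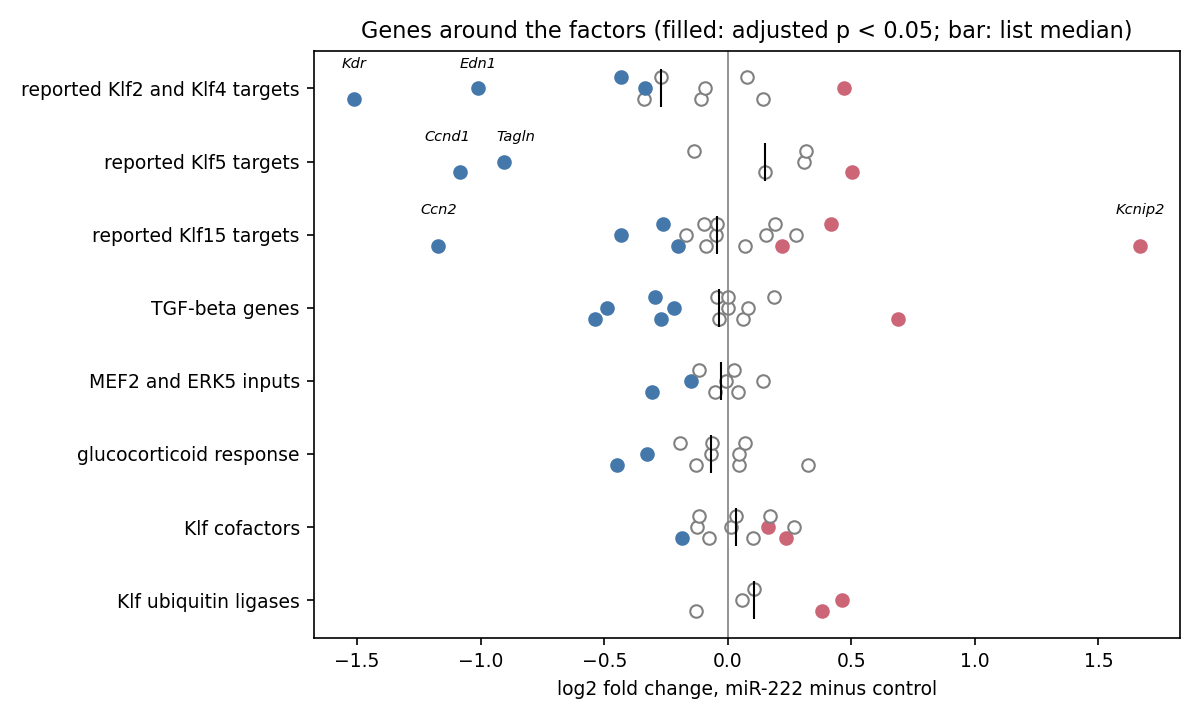
Log2 fold change (miR-222 minus control) of each measured gene in 8 lists around the factors, filled red or blue where it rose or fell with a limma adjusted p under 0.05, with the list median as a black bar. Kdr, Edn1, Ccnd1, Tagln and Ccn2 lie farthest to the left and Kcnip2 farthest to the right.

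Several of these factors are known from other cells of the heart, and in bulk RNA fewer cells of a type and less RNA per cell cannot be told apart. The counts of called markers stand beside 11.7% of all genes higher and 13.0% lower. The 8 cardiomyocyte markers lay at 12.26 to 13.67 log2 units, against array medians of 7.66 to 7.77, and their summed intensity was 75718 to 77295 in the control arrays and 73133 to 74338 in the miR-222 arrays. Among them Ryr2 fell by 0.14, a call that ended when any one array other than miR-222 replicate 2 was left out (limma adjusted p up to 0.112). The 10 measured endothelial markers were dim, with a median of 7.35 log2 units, and 1 fell, Kdr. Without Kdr and Nos3, which are also listed as targets, their summed intensity was 1412 to 1509 in the control arrays and 1435 to 1489 in the miR-222 arrays. Of 9 fibroblast markers 3 fell, Lum by 0.89, Postn by 0.54 and Ddr2 by 0.35, with summed intensities of 9553 to 10614 and 8243 to 9423. The other 6 did not pass and measured -0.22 to 0.11. Without Col1a1, which is also among the TGF-beta genes, the sums were 6832 to 7598 in the control arrays and 5474 to 6487 in the miR-222 arrays. Whether these lower fibroblast readings, or the lower cardiomyocyte sums, bear on the falls of Klf4, Klf5 and Klf6 was not tested. The count of 3 was 1 when control replicate 3, control replicate 4 or miR-222 replicate 1 was left out, where the calls of Postn and Ddr2 were lost, and Postn was lost also without control replicate 2 and Ddr2 without control replicate 1. Of 6 smooth muscle markers Tagln fell, and the summed intensity of the other 5 was 13909 to 14270 in the control arrays and 11858 to 14058 in the miR-222 arrays. Most of that sum was Acta2, with mean intensities of 9805 and 9291, a gene read as brightly as the cardiomyocyte markers. Without miR-222 replicate 1 a second smooth muscle marker, Myh11, passed as higher (limma adjusted p = 0.0167). Of 9 macrophage and leukocyte markers C1qa rose by 0.26, and this call ended when any one array other than control replicate 4 was left out (limma adjusted p up to 0.118). Their summed intensity was 1092 to 1173 in the control arrays and 1121 to 1256 in the miR-222 arrays. No marker of these lists was at 0, since the table held no zeros.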

How the data were processed

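RNA of 8 NRVM samples was read on Affymetrix arrays. The series text names one rat array, but the identifiers pair with the annotation of the Rat Gene 1.0 ST platform, which was used for names. The deposited intensity values were on a linear scale (0.8 to 16339). How the authors summarized and normalized them is not given in the sources used, and the array medians lay close together, at 202 to 219. Of 29170 probe sets 15310 paired with 1 gene, 323 with several and 13537 with none. The number of arrays, 4 a group, limits the precision.

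Each intensity was taken as log2 with no pseudocount or filter, and all probe sets were fitted with limma 3.58.1 (lmFit, eBayes) in R 4.3.3, miR-222 against control, 2-sided, with Benjamini-Hochberg adjustment over the 29170 tests. The fit was also run on simulated data with independent noise and far fewer changed probe sets than were called here, and no result rests on that run. Single values had an exact permutation test. A gene's second probe set was compared as the difference of the log2 levels. Python 3.11.15 and matplotlib 3.10.9 drew the plots.

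The members and gene lists were chosen with earlier results of these data known. By rule the text names all 9 members and all measured Klf and Sp genes. Of each other list it names at most the 4 genes with the smallest adjusted p, with those that complete a count of 5 or fewer. Other genes of the lists were named after their values were seen, where they fall outside that rule. They are Mapk7, Mef2a, Mef2d, Thbd, Nos3, Ncor1, Birc5, Pdk4, Myh11, Col1a1 and the genes linked to Klf15 that did not pass. Replicates are numbered in listing order. Alternatives left out each array, normalized by quantiles or to array medians, added 16 to each intensity, kept the upper 60% of probe sets by mean, used a trend and robust variance, weighted arrays, or averaged a gene's probe sets.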

Additional observations from a re-analysis of the deposited data

Results flagged for a closer look

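In 156 groups of 4 arrays belonging to the genes covered by the naming rule, 9 (5.77%) held a single array beyond Dixon's 95% limit, where chance gives about 1 in 20. Of the Kruppel-like factors, Klf6 was lowest in miR-222 replicate 3 at 9.16 log2 units against 9.54 to 9.60 in the other 3 arrays. The dimmer probe set of Klf5 was highest in miR-222 replicate 2, at 7.87 against 7.50 to 7.54. Within the limit, the brighter probe sets of Klf4 and Klf5 were also lowest in miR-222 replicate 3, at 8.29 and 7.93. When arrays were weighted by their scatter, miR-222 replicates 2 and 3 had weights of 0.565 and 0.595. miR-222 replicates 1 and 4 had 1.48 and 1.25, and the control arrays 0.869 to 1.88.

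Among the other genes, Ccl2 was also lowest in miR-222 replicate 3, at 11.45 against 11.80 to 11.87. Hdac7 was highest in miR-222 replicate 4 at 7.91 against 7.79 to 7.81, and Adgre1 lowest in miR-222 replicate 1 at 6.21 against 6.42 to 6.47. In the control arrays Nr3c1 was highest in replicate 1 at 11.50 against 11.43 to 11.44, Pdgfa highest in replicate 2 at 10.96 against 10.88 to 10.89, Bckdha lowest in replicate 1 at 8.88 against 8.95 to 8.96, and Btrc lowest in replicate 4 at 10.97 against 11.07 to 11.08.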

How the results depend on the processing

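Klf5, Klf6 and Klf9 kept their calls and directions under every alternative run, with ranges of -0.58 to -0.27, -0.65 to -0.50 and 0.20 to 0.26. None of these alternatives used the dimmer probe set of Klf5 alone. That probe set measured -0.04 and did not pass (limma adjusted p = 0.842). Over the 9 factors 119 of the refits left the call as it was, 4 added a call and 5 removed one, all 5 of Klf4. The count of higher factors was 1 to 2 when 1 array was left out, 3 over the brightest 60% of probe sets (with Klf3 and Klf15) and 2 with the trend and robust variance (with Klf3), and the count of lower factors was 2 to 3 when 1 array was left out and 2 to 3 otherwise. Over the genes of the lists around the factors, 10 higher calls became 16 over the brightest 60% and 16 with the trend and robust variance, and were 9 to 12 when 1 array was left out. Over all genes the calls were 1266 to 1570 higher and 1404 to 1834 lower when 1 array was left out, against 1692 and 1888 as reported. Centring each array on its median gave 1190 higher and 1863 lower, and the brightest 60% gave 2066 higher and 2190 lower. The median change of all genes was 0.01 as reported, 0.01 after quantile normalization and -0.01 after median centring. With the trend and robust variance 5 cofactor genes were higher and 3 lower, and 4 cardiomyocyte markers were lower. Over the brightest 60% of probe sets 5 genes linked to Klf15 were higher. The deposited values come with no detection or background measure, so it is unknown which dim probe sets were above background. No paired analysis was possible because the labels give no replicate numbers.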

Other observations

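Klf5 and Klf12 are neighbours on rat chromosome 15, with 0 protein-coding genes between them in RefSeq on GRCr8. Both fell, Klf5 by 0.49 on the log2 scale by its brighter probe set and Klf12 by 0.57. Of the protein-coding genes around the pair that were measured, Dis3, a subunit of the exosome, measured -0.12 (limma adjusted p = 0.191) and Bora, an activator of mitotic kinases, 0.05 (adjusted p = 0.861) on the side of Klf5. On the side of Klf12, Commd6 measured -0.06 (adjusted p = 0.454) and Uchl3 0.02 (adjusted p = 0.757). The neighbourhood was looked up after both falls were seen, and whether it bears on them was not tested.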
